A study of Mus musculus with 26 samples.

Results

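The positions described here are the places in the mouse genome that induced Ngn2 occupied on day 4 of motor neuron differentiation and that were already open on day 2, before retinoic acid and the Hedgehog agonist SAG were added. They were chosen by overlap of 2 deposited lists: an Ngn2 position is a member where a day 2 ATAC-seq peak lies within 250 bp of it. Of 3180 distinct Ngn2 positions, 907 (28.5%) are members, and the other 2273 are called closed positions below. The day 2 ATAC list alone made this split, so the openness of the members on day 2 is a description and not a finding.

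Ngn2 is a proneural transcription factor of the basic helix-loop-helix class. It binds E-box sequences with a partner protein and drives neural progenitors towards neuronal differentiation, including in the ventral spinal cord where motor neurons arise. ATAC-seq and DNase-seq mark chromatin that an enzyme can reach, H3K27ac (acetylated lysine 27 of histone H3) marks active enhancers and promoters, and p300 is an acetyltransferase that deposits this mark. A factor of this class may meet its sites in chromatin that is already accessible or in chromatin that is not, and the day 2 map divides the Ngn2 sites along that line.

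In the study, cultures of mouse embryonic stem (ES) cells were differentiated into spinal motor neurons. The Ngn2 ChIP-seq library was made on day 4 against a V5 tag, from cells that received 1 uM retinoic acid and 0.25 uM SAG on day 2 and 3 ug/ml doxycycline on day 3 to induce Ngn2 (its label, too, names iCre), so the list shows where an overexpressed, tagged protein lay. The day 2 ATAC library came from cells labelled as primitive ectoderm that had received no addition. The ATAC libraries of days 4, 5 and 6, H3K27ac of the same days, and p300, Isl1 and Onecut1 of days 5 and 6 came from cells of the iCre line that received retinoic acid and SAG on day 2 and, for days 5 and 6, 5 uM of the Notch pathway inhibitor DAPT from day 4. No doxycycline is named for these libraries, so the Ngn2 map and the chromatin maps come from different cultures. The DNase library came from ES cells on day 0, of the HBG3 line, with no addition. All samples also bear the cell name Ainv15 in another label.

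Each condition had 1 library, except H3K27ac of day 4 and Isl1 of each day, which had 2. A position counts as present in a readout where a peak or binding event of either library lies within 250 bp. For the second H3K27ac library of day 4 the label gives iCre but the file name HBG3, the file of the first day 6 Isl1 library carries a mark that the other Isl1 files do not, and the library labelled Lhx3 (a V5 map in the induced NIL line on day 4, with retinoic acid and doxycycline on day 2) has a file name that mentions Isl1. The lists held between 1079 events (the second Isl1 library of day 5) and 85989 peaks (ATAC of day 2). Read numbers per library are not given in the sources used here, so a site missing from a shorter list may have fallen under that list's own threshold.

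RNA of the normal differentiation places the Ngn2 map in time. Neurog2, the gene that encodes Ngn2, stood at 0.0483 FPKM on day 0, 19.7 FPKM on day 4, 29.9 FPKM on day 5 and 0.899 FPKM on day 6, with 1 library a day. It was therefore high on days 4 and 5 and low on days 0 and 6. Isl1, a LIM-homeodomain protein of motor neuron differentiation, stood at 0.0985, 3.68, 88.0 and 116.5 FPKM on days 0, 4, 5 and 6, and Onecut1, a cut-homeodomain factor, at 0.0586, 1.99, 12.5 and 14.0 FPKM. Days 0 and 4 of the RNA came from the HBG3 line and days 5 and 6 from the iCre line, so line and day cannot be told apart in the step from day 4 to day 5. RNA of the induced Ngn2 cells and of day 2 was not analysed here.

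Among the members, 314 (34.6%) had the Ngn2 position inside the 100 bp day 2 peak itself, 412 had it up to 100 bp away and 181 more than 100 and up to 250 bp away, with a median of 26 bp to the nearest base of the peak. The split was a clear gap for most positions: 2052 of the 2273 closed positions had no day 2 peak within 1 kb, 187 had one at more than 300 bp and up to 1 kb, and 34 had one within 300 bp. The deposited Ngn2 score was nearly the same in both sets, with a median of 83 at members (range 56 to 638) and 85 at closed positions (range 56 to 858). What that score counts is not stated. As for other Ngn2 sites nearby, 124 members (13.7%) and 294 closed positions (12.9%) had another Ngn2 position within 10 kb, a difference of 0.737 percentage points whose 95% interval ran from -1.80 to 3.47. Members were found on 20 chromosomes, and made up between 21.9% of the Ngn2 positions of chromosome 12 and 36.9% of those of chromosome 17.

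The day 2 peaks under the members ran from weak peaks to the 18th highest score of the day 2 list. The best deposited score of a day 2 peak had a median of 8.78 at members and ran from 3.17 to 352. The whole list of 85989 peaks had a median of 6.58 and a maximum of 5419. Members with the highest day 2 score were the position at 5860694 on chromosome 3 (mm9, score 352, 18th in the list), and those on chromosome 5 at 147072734, chromosome 16 at 57391738 and chromosome 9 at 123371103. The first 3 of these 4 also had an Onecut1 event on day 6, all 4 had ATAC peaks on days 4, 5 and 6, and none had an H3K27ac peak on any day. The fifth in order, at 20020423 on chromosome 8 (day 2 score 186.7), had H3K27ac on days 4, 5 and 6. These 5 were named because of their scores, after the values were seen.

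Nearly all members were open again on day 4, and they kept their ATAC peaks longer than closed positions did. An ATAC peak lay at 836 of 907 members (92.2%) and 1565 of 2273 closed positions (68.9%) on day 4, beside 75.5% of all Ngn2 positions. The difference was 23.3 percentage points (95% interval 20.6 to 25.8). On day 5 the counts were 767 members (84.6%) and 1210 closed positions (53.2%), beside 62.2% of all Ngn2 positions, a difference of 31.3 points (28.1 to 34.4). By day 6 an ATAC peak was found at 512 members (56.4%) and 435 closed positions (19.1%), beside 29.8% of all, a difference of 37.3 points (33.7 to 40.9). The order of these 3 differences depended on the lists: with only the upper 50% of each later list by score, the differences were 35.0, 38.1 and 29.4 points on days 4, 5 and 6. The members moved by 10 kb in either direction held ATAC peaks in 1.93%, 2.15% and 1.49% of cases on days 4, 5 and 6, far below both sets. All intervals given for shares and differences are 95% intervals (Clopper-Pearson for shares, Newcombe for differences), are not adjusted for the 14 readouts compared, and cover counting error only: neighbouring positions are not independent replicates, and a second culture could differ by more.

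**Figure D1:**
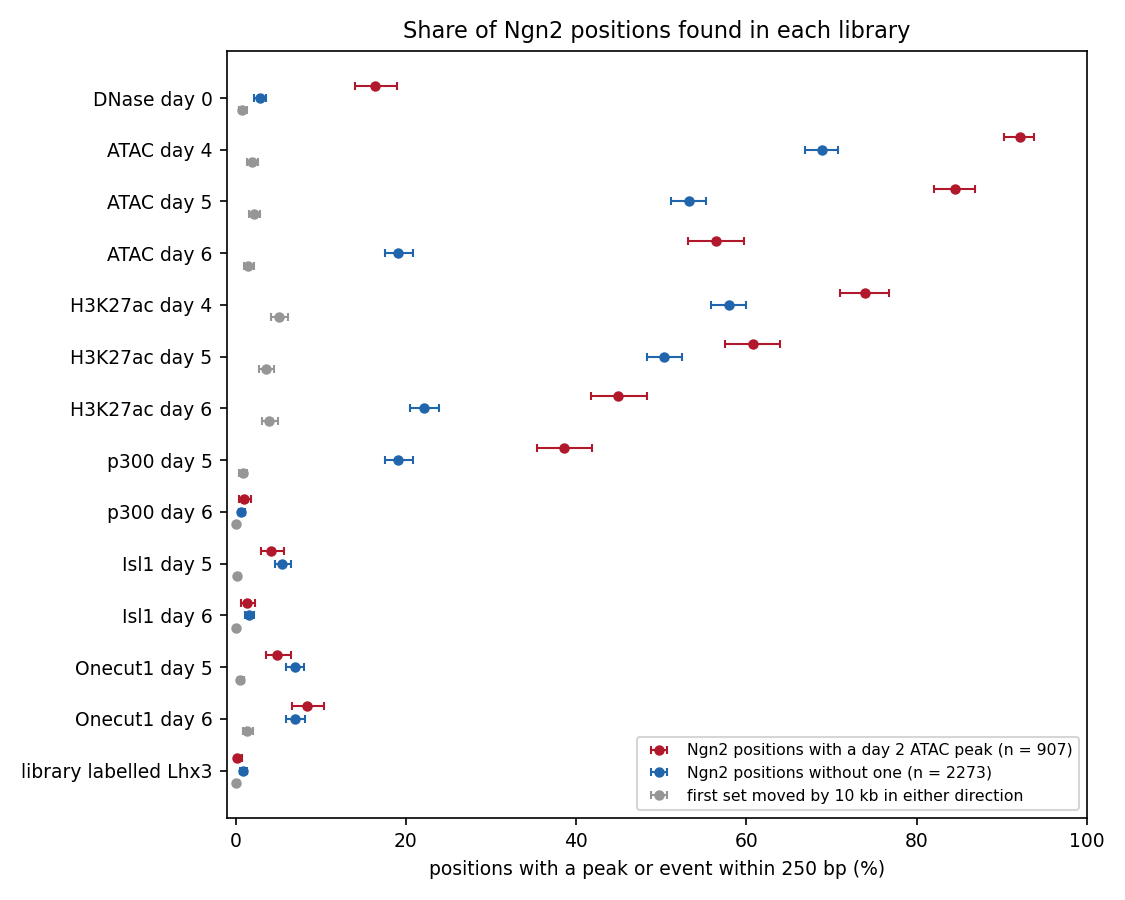
Share of positions (x axis, percent) with a peak or event within 250 bp in each readout (rows), for the 907 members, the 2273 closed positions and the members moved by 10 kb, with 95% Clopper-Pearson intervals from counting. Members stand to the right of closed positions for DNase, ATAC, H3K27ac and day 5 p300, at 56.4% against 19.1% for ATAC of day 6, and the intervals of the Isl1 shares overlap.

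A minority of the members were also open in ES cells. DNase peaks of day 0 lay at 149 members (16.4%) and 64 closed positions (2.82%), beside 6.70% of all Ngn2 positions, a difference of 13.6 points (11.2 to 16.2). Moved members held one in 0.772% of cases. The DNase list is short, with 9955 peaks, so this share depends on its threshold. Of members with DNase on day 0, 84 of 149 (56.4%) were open on day 6, and of those without, 428 of 758 (56.5%), a difference of -0.0885 points (-8.84 to 8.40). They differed in H3K27ac of days 4 and 5 and in p300 of day 5. On day 6 the intervals included 0, at 4.80 points (-3.87 to 13.5) for H3K27ac and 0.419 points (-0.956 to 3.87) for p300. H3K27ac of day 4 was present at 81.2% of members with DNase and 72.6% of those without, a difference of 8.65 points (0.986 to 15.0). H3K27ac of day 5 was present at 71.8% of members with DNase and 58.6% of those without, a difference of 13.2 points (4.80 to 20.7), and p300 of day 5 at 49.0% and 36.5%, a difference of 12.5 points (3.81 to 21.1).

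Followed one by one, the members fell into a few ATAC courses. Open on all of days 4, 5 and 6 were 489 members (53.9%) and 373 closed positions (16.4%). Open on days 4 and 5 and no longer on day 6 were 240 members (26.5%) and 609 closed positions (26.8%), a difference of -0.332 points (-3.67 to 3.13). Open on day 4 alone were 100 members (11.0%) and 571 closed positions (25.1%). No later ATAC peak was found at 29 members (3.20%) and 473 closed positions (20.8%). The remaining 49 members had gaps in their course: 7 were open on days 4 and 6, and 42 were open on day 5 or 6 without a day 4 peak. The members were thus weighted towards the longest course.

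**Figure D2:**
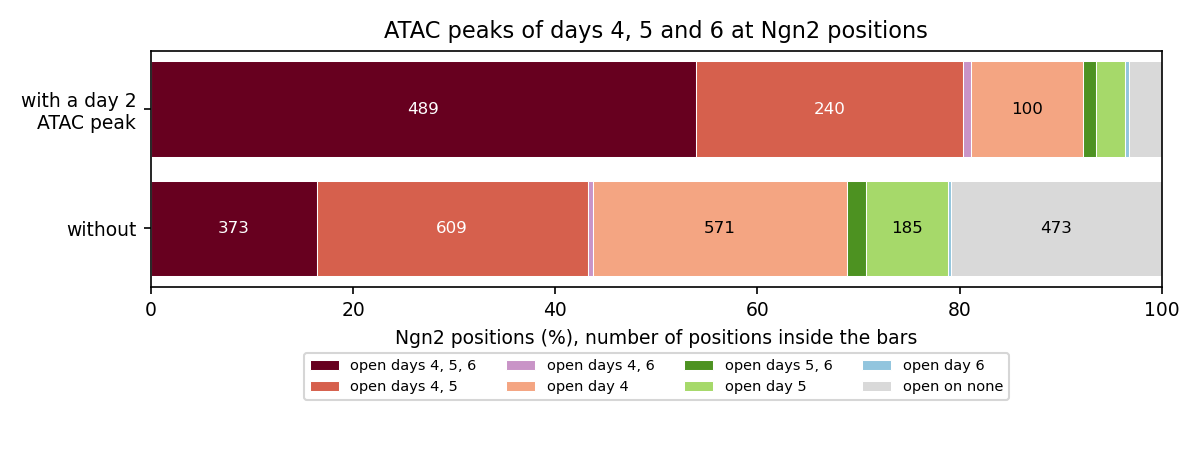
ATAC course of the Ngn2 positions over days 4, 5 and 6, as a share of each set (x axis, percent) with the number of positions inside the larger bars. The dark segment for all 3 days holds 489 members and 373 closed positions, and the grey segment for none of these days holds 29 members and 473 closed positions.

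The persistence differed at each step and not only in the first. Of positions open on day 4, 729 of 836 members (87.2%) and 982 of 1565 closed positions (62.7%) were also open on day 5, a difference of 24.5 points (21.1 to 27.7). Of those open on day 5, 501 of 767 members (65.3%) and 416 of 1210 closed positions (34.4%) were open on day 6, a difference of 30.9 points (26.6 to 35.1). Peak scores ran the same way: 83.4% of the members' day 4 ATAC peaks and 59.9% of those at closed positions lay above the median score of the day 4 list, and on day 6 the shares were 64.7% and 41.1%. A weaker peak is nearer to its list's threshold, and the part of peak strength in these differences was not tested.

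Within the members, the top groups by day 2 score and by Ngn2 score both had more ATAC on days 4 and 5 than the bottom groups. On day 6 the scores went with ATAC in opposite directions. ATAC of day 6 was found at 170 of 223 members in the top of 4 near-equal groups by day 2 score (76.2%) and 93 of 240 in the bottom group (38.8%), a difference of 37.5 points (28.8 to 45.3), with 66.8% and 44.7% in the upper and lower of the groups between. Grouped likewise by Ngn2 score, the top group had ATAC at 118 of 226 members on day 6 (52.2%) and the bottom group at 142 of 229 (62.0%), a difference of -9.80 points (-18.7 to -0.706). On day 4 the same Ngn2 score groups stood at 98.2% and 87.8%, a difference of 10.5 points (5.94 to 15.5), and on day 5 at 91.6% and 83.8%, a difference of 7.75 points (1.70 to 13.8). The upper and lower of the Ngn2 score groups between stood at 84.55% and 78.45% on day 5, so that rise was not graded. The top and bottom day 2 score groups differed by 11.5 points (6.74 to 16.6) on day 4 and 17.9 points (11.6 to 24.2) on day 5. On day 6 these groups between stood at 55.5% and 56.0%, and the Ngn2 and day 2 scores were not held apart. The top Ngn2 score group was therefore open more often than the bottom group on days 4 and 5 and less often on day 6. H3K27ac followed the same order, with 82.7% in the top and 65.5% in the bottom Ngn2 score group on day 4 (17.2 points, 9.23 to 25.0), and 40.7% and 50.7% on day 6 (-9.95 points, -18.9 to -0.796).

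H3K27ac marked most members on day 4 and fewer on each later day. The size of the fall from day 4 to day 5 depended on how the day 4 libraries were counted. The day 4 share was 74.0% in either, 64.1% in the second alone and 62.4% in both, beside 60.8% on day 5. In either day 4 library a peak lay at 671 members (74.0%) and 1317 closed positions (57.9%), beside 62.5% of all Ngn2 positions, a difference of 16.0 points (12.5 to 19.5). The 2 libraries gave different sizes: the first 72.3% of members and 56.0% of closed positions, a difference of 16.4 points, and the second 64.1% and 38.6%, a difference of 25.5 points (21.7 to 29.1). With a peak required in both, the shares were 62.4% and 36.6%, a difference of 25.8 points (22.0 to 29.5). On day 5 a peak lay at 551 members (60.8%) and 1145 closed positions (50.4%), beside 53.3% of all, a difference of 10.4 points (6.56 to 14.1). On day 6 it lay at 408 members (45.0%) and 504 closed positions (22.2%), beside 28.7% of all, a difference of 22.8 points (19.2 to 26.5). Moved members held H3K27ac peaks in 5.07%, 3.53% and 3.97% of cases on days 4, 5 and 6.

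Acetylated peaks are wide, and Ngn2 positions often lay beside them. Of the members with an H3K27ac peak on day 5, 235 of 551 (42.6%) had the Ngn2 position inside the peak, against 376 of 1145 closed positions (32.8%), a difference of 9.81 points (4.89 to 14.8). The first day 4 library gave 46.6% of members and 32.9% of closed positions, the second 46.3% and 34.0%. On day 6 the position was inside at 64.2% of members and 54.2% of closed positions, a difference of 10.1 points (3.63 to 16.3). The day 6 shares were the highest of the 4 libraries in both sets, and the widths of the peaks differ between libraries and sets. At members the median was 741 and 788 bp in the day 4 libraries, 581 bp on day 5 and 736 bp on day 6. At closed positions it was 558 and 590 bp in the day 4 libraries, 579 bp on day 5 and 661.5 bp on day 6. The part of peak width in these shares was not tested.

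Acetylation was present on all of days 4, 5 and 6 at 334 members (36.8%) and 351 closed positions (15.4%), and on none of these days at 182 members (20.1%) and 707 closed positions (31.1%). A pattern of days 4 and 5 without day 6 was less common among members, at 189 (20.8%), than among closed positions, at 613 of 2273, with a difference of -6.13 points (-9.26 to -2.84). Both ATAC and H3K27ac on all 3 days were found at 248 members (27.3%) and 141 closed positions (6.20%), and 192 and 104 of these also had p300 on day 5. Open on all 3 days with no H3K27ac peak on any of them were 82 members (9.04%) and 73 closed positions (3.21%), a difference of 5.83 points (3.95 to 7.97).

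The coactivator p300 was found at 350 members (38.6%) and 435 closed positions (19.1%) on day 5, beside 24.7% of all Ngn2 positions, a difference of 19.5 points (15.9 to 23.0), while moved members held an event in 0.827% of cases. Of the positions with p300, 286 of 350 members (81.7%) and 354 of 435 closed positions (81.4%) carried H3K27ac on the same day, a difference of 0.335 points (-5.20 to 5.73). An ATAC peak of day 5 lay at 338 of the 350 members and 376 of the 435 closed positions. ATAC of day 6 lay at 286 of the 350 members (81.7%) and 229 of the 435 closed positions (52.6%), a difference of 29.1 points (22.7 to 35.1). H3K27ac of day 6 lay at 74.3% of these members and 55.4% of these closed positions, a difference of 18.9 points (12.21 to 25.25). The day 6 p300 list held 1337 events against 19398 on day 5, and only 9 members (0.992%) and 15 closed positions (0.660%) had one, beside 0.755% of all, a difference of 0.332 points (-0.302 to 1.25). No moved member had an event in that list.

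**Figure D3:**
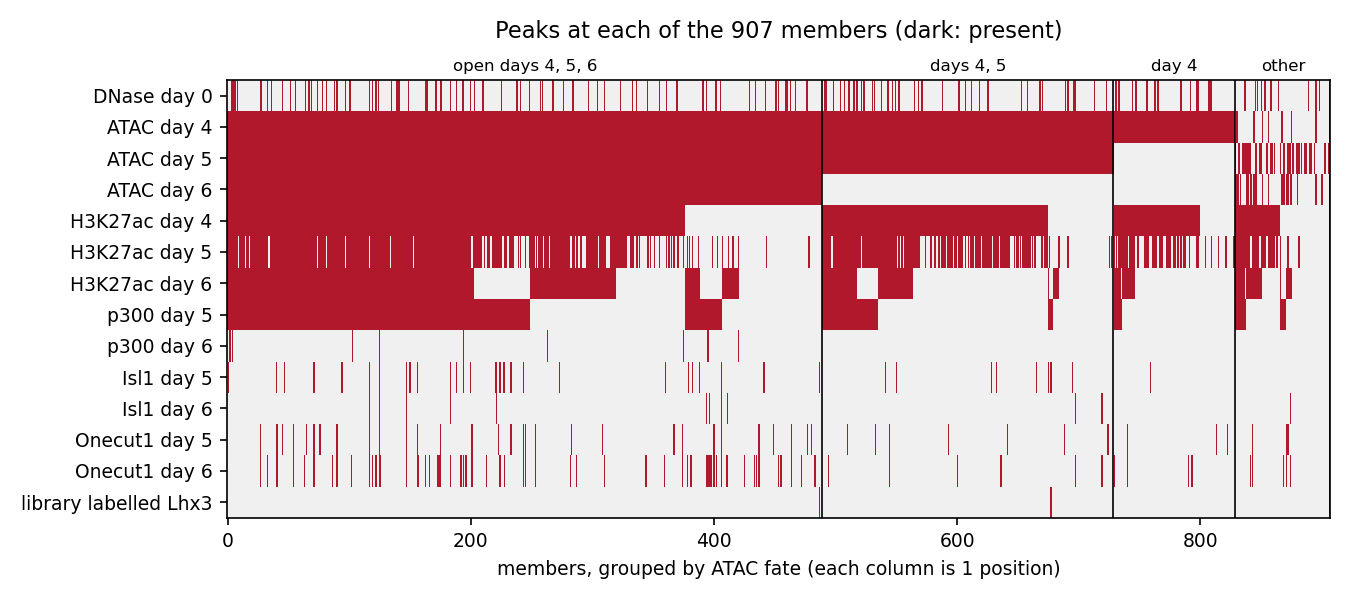
Presence (dark) or absence (light) of a peak or event within 250 bp at each of the 907 members (columns), for 14 readouts (rows), with members grouped by ATAC course. In the left block of 489 members open on days 4, 5 and 6, p300 of day 5 covers 279 columns, and in the next block of 240 members it covers 50.

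The ATAC course of a member went with p300 on day 5. Members open on days 4, 5 and 6 had p300 at 279 of 489 (57.1%), those open on days 4 and 5 at 50 of 240 (20.8%) and those open on day 4 alone at 7 of 100. Between the first pair of courses the difference was 36.2 points (29.1 to 42.6), although both groups were open on the day p300 was mapped. The interval of the difference included 0 for 7 readouts, among them Isl1 of both days, Onecut1 of day 5 and the library labelled Lhx3. Of the others, H3K27ac of day 4 stood at 77.1% and 77.5% (-0.404 points, -6.63 to 6.28), H3K27ac of day 5 at 64.8% and 63.3% (1.49 points, -5.78 to 8.98), and DNase of day 0 at 16.8% and 16.7% (0.102 points, -5.95 to 5.60). On day 6, when one group had closed, H3K27ac was present at 61.3% and 26.7% of them (34.7 points, 27.3 to 41.4). The median day 2 score was 11.7 in the members open on all 3 days, 7.07 in those open on days 4 and 5 and 6.83 in those open on day 4 alone, and the median Ngn2 score was 82, 96.5 and 77.

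**Figure D4:**
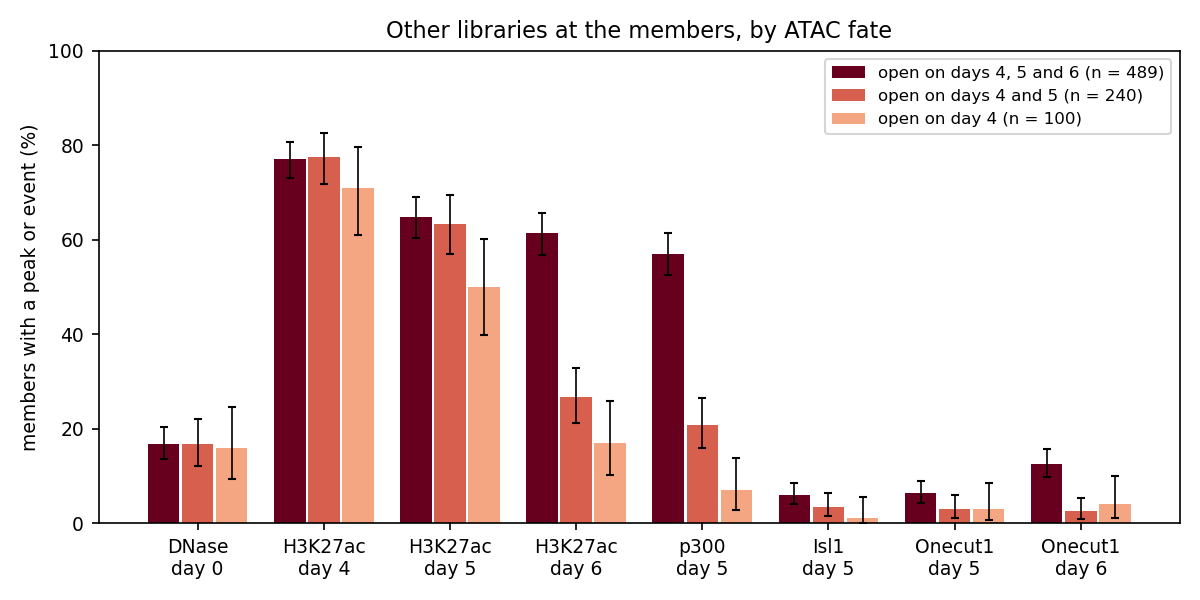
Share of members (y axis, percent) with a peak or event in 8 readouts, for members open on days 4, 5 and 6 (n = 489), on days 4 and 5 (n = 240) and on day 4 alone (n = 100), with 95% Clopper-Pearson intervals. The 3 bars stand level for DNase and near each other for H3K27ac of day 4, and step down for p300 of day 5 in the order of the legend, with 57.1% for the first group and 20.8% for the second.

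Binding of the motor neuron factors was uncommon at members, with an event at a small share of them in each library. The Isl1 lists were short, with 2260 events in the longest, so the Isl1 shares depend on their thresholds. Isl1 of day 5 lay at 38 members (4.19%) and 125 closed positions (5.50%), beside 5.13% of all Ngn2 positions, a difference of -1.31 points (-2.82 to 0.429). Isl1 of day 6 lay at 12 members (1.32%) and 36 closed positions (1.58%), beside 1.51% of all, a difference of -0.261 points (-1.09 to 0.808). The replicate libraries seldom shared sites here: Isl1 was in both libraries at 7 members on day 5 and at 1 on day 6. Moved members held Isl1 events in 0.165% of cases on day 5 and in none on day 6.

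The Onecut1 lists differed in length, with 23245 events on day 5 and 63488 on day 6, so these shares depend on their thresholds. Onecut1 was called different between members and closed positions on day 5 only. On day 5 it lay at 44 members (4.85%) and 158 closed positions (6.95%), beside 6.35% of all Ngn2 positions, a difference of -2.10 points (-3.75 to -0.228) that did not hold at 3 of the other settings tried. On day 6 it lay at 76 members (8.38%) and 159 of 2273 closed positions, beside 7.39% of all, a difference of 1.38 points (-0.597 to 3.60). Moved members held Onecut1 events in 0.551% and 1.38% of cases on days 5 and 6. The difference between the days was not tested. Onecut1 of day 6 did vary within the members, at 61 of 489 open on days 4, 5 and 6 (12.5%) and 6 of 240 open on days 4 and 5 (2.50%), a difference of 9.97 points (6.09 to 13.5). The library labelled Lhx3 had events at 2 members (0.220%) and 19 closed positions (0.836%), beside 0.660% of all, a difference of -0.615 points (-1.11 to 0.0376). At moved members that library had an event in 0.110% of cases.

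The members can also be set against the rest of the chromatin that was open on day 2. The 907 members lie at 985 of the 85989 day 2 ATAC peaks, since some have more than 1 peak within 250 bp. Of day 2 peaks with Ngn2, 917 of 985 (93.1%) had an ATAC peak again on day 4, as did 31563 of the 85004 other day 2 peaks (37.1%), beside 37.8% of all day 2 peaks. On day 5 it was 85.9% with Ngn2 and 38.5% of the others, beside 39.0% of all, and on day 6 59.1% and 35.8%, beside 36.1% of all. The differences were 56.0 points (54.2 to 57.4), 47.4 points (45.1 to 49.5) and 23.3 points (20.2 to 26.3) on days 4, 5 and 6. Each later list has its own threshold, and the upper 50% of these lists was not tried here. A change of the difference over time is therefore not shown. The Ngn2 map was made on day 4 and has its own list threshold, and this comparison used its positions to divide the day 2 peaks.

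The difference was larger among the weakest than among the strongest day 2 peaks. With all day 2 peaks divided into 4 near-equal groups by day 2 score, in the lowest group 126 of 148 peaks with Ngn2 (85.1%) and 2595 of 21350 others (12.2%) were found on day 4, a difference of 73.0 points (66.4 to 77.8). In the highest group the shares were 98.0% and 71.2%, a difference of 26.8 points (24.8 to 27.9). The share of 71.2% at the other peaks leaves little room for a larger difference there, so the fall in points is bounded by that share. Over all score groups together, other readouts were also more common at day 2 peaks with Ngn2. Their differences did not all follow the day 2 score as ATAC of day 4 did. For DNase of day 0 the difference was 5.97 points in the lowest group and 13.4 points in the highest. For H3K27ac of each day and p300 of day 5 it was smaller in the highest group than in the lowest, without a steady fall between. DNase of day 0 was present at 16.8% of day 2 peaks with Ngn2 and 5.17% of the others (5.30% of all). H3K27ac was present at 76.3% and 22.4% on day 4 (23.1% of all), 63.2% and 14.7% on day 5 (15.3% of all) and 47.9% and 22.2% on day 6 (22.5% of all). For p300 of day 5 the shares were 40.0% and 13.2% (13.5% of all). Isl1 events lay at 40 of 985 day 2 peaks with Ngn2 (4.06%) and 151 of 85004 others (0.178%) on day 5. On day 6 they lay at 13 (1.32%) and 120 (0.141%), and the Isl1 lists were short. Onecut1 events lay at 48 (4.87%) and 1132 (1.33%) on day 5, and at 89 (9.04%) and 3243 (3.8%) on day 6. For Isl1 and Onecut1 the share over all day 2 peaks was not calculated, but the others make up 85004 of the 85989.

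The order turned round once a day 2 peak was known to be open on day 4. Of such peaks, 567 of 917 with Ngn2 (61.8%) and 24874 of 31563 others (78.8%) were open on day 6, a difference of -17.0 points (-20.2 to -13.9). On day 5 the sign was still positive, at 88.4% with Ngn2 and 84.2% of the others (with an interval for the difference from 1.93 to 6.15). That excess stood in the lower 2 groups of day 2 score, at 15.4 and 12.8 points. In the upper 2 groups it was 2.95 points (-2.23 to 6.89) and 2.06 points (-0.737 to 4.02). The day 6 deficit stood in the upper 3 groups of day 2 score, at -19.2, -19.3 and -12.4 points from low to high, and in the lowest group it was -8.10 points (-16.7 to 0.818). Within 4 groups of day 4 score, a division added after the values were seen, the deficit was -23.4, -26.4, -28.2 and -23.3 points from low to high, with each interval below 0. In the highest, 307 of 427 peaks with Ngn2 (71.9%) and 7324 of 7693 others (95.2%) were open on day 6. The step from day 5 to day 6 showed it too: of day 2 peaks open on day 5, 575 of 846 with Ngn2 (68.0%) and 27517 of 32701 others (84.1%) were open on day 6, a difference of -16.2 points (-19.4 to -13.1), with the interval below 0 in every group of day 2 score.

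**Figure D5:**
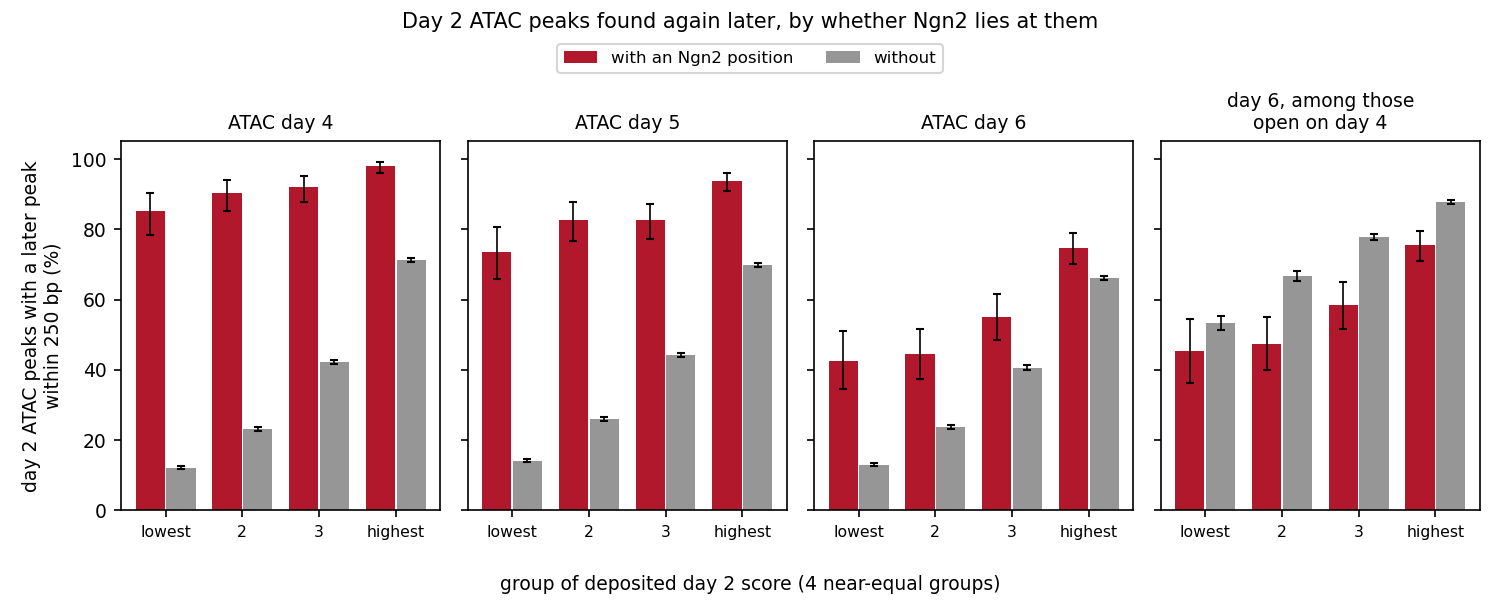
Share of day 2 ATAC peaks (y axis, percent) with an ATAC peak within 250 bp on days 4, 5 and 6, and on day 6 among those open on day 4, by group of deposited day 2 score (4 near-equal groups), for peaks with an Ngn2 position and for the others, with 95% Clopper-Pearson intervals. In the first 3 panels peaks with Ngn2 stand higher (85.1% and 12.2% in the lowest group on day 4), and in the last panel they stand lower (75.4% and 87.8% in the highest group).

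Day 2 peaks near a member were open again less often than those at it. Peaks within 10 kb of a member and over 1 kb from any Ngn2 position were open on day 4 in 321 of 713 cases (45.0%), as were 30288 of 82132 peaks farther than 10 kb away (36.9%), a difference of 8.14 points (4.51 to 11.8). For H3K27ac of day 4 the shares were 37.3% and 21.8%, a difference of 15.5 points (12.0 to 19.1). Both neighbour values are far below the 93.1% and 76.3% at the peaks with Ngn2 themselves.

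The nearest ATAC peak centre lay at slightly different median distances on different days, and these differences were not tested. The distance from the Ngn2 position to the centre of the nearest ATAC peak had a median of 76 bp at 907 members on day 2, 66 bp at 836 on day 4, 65 bp at 767 on day 5 and 84.5 bp at 512 on day 6. Among the 836 members with a day 4 peak the centre was closer on day 4 than on day 2 at 466, farther at 347 and as far at 23. On day 6 closer and farther were nearly even, at 252 and 246 of 512. At the 489 members open on all 3 days the medians were 81, 75, 74 and 84 bp on days 2, 4, 5 and 6. The 512 members open on day 6 had a day 2 median of 82.5 bp. Closed positions had medians of 58, 55 and 76 bp on days 4, 5 and 6.

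Single members show these courses. The member with the highest Ngn2 score, at 100458736 on chromosome 12 (mm9; score 638), lay inside a weak day 2 peak of score 4.14, had ATAC scores of 30.0 on day 4 and 17.8 on day 5 and none on day 6, and had H3K27ac on days 4 and 5 (scores 85.4 and 37.2 in the day 4 libraries and 28.2 on day 5) and no p300. At 64306678 on chromosome 13 (Ngn2 score 607) the course was the same, with ATAC scores of 11.2 on both days. The third of this kind, at 93310868 on chromosome 1 (Ngn2 score 503), lost its ATAC peak by day 6 and yet had p300 on day 5 (114 precipitated reads) and H3K27ac on day 6 (score 21.1).

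Among members open on all 3 days, that with the highest Ngn2 score was at 15480290 on chromosome 17 (score 546), where ATAC scores were 26.9, 40.2 and 37.7 on days 4, 5 and 6 from a day 2 score of 4.63, with H3K27ac on every day and a p300 event of 100.5 reads on day 5. At 96890144 on chromosome 9 (Ngn2 score 479) the ATAC scores were 45.7, 14.2 and 6.48 and the p300 event held 205 reads. At 154291906 on chromosome 2 (Ngn2 score 511) the ATAC scores were 17.8, 14.2 and 6.89, p300 held 53.0 reads, and both Isl1 and Onecut1 had an event on day 5. Scores of different days come from different lists, so their order over days shows no change.

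Other members had no day 4 ATAC peak. The highest Ngn2 score among the 29 with no later ATAC peak was 144, at 36666471 on chromosome 9, and that position was absent from all 14 readouts. At 28043063 on chromosome 7 (Ngn2 score 128) no ATAC peak was found after day 2, although H3K27ac was present on days 4, 5 and 6, with scores of 86.3 and 77.5 in the day 4 libraries. At 168503325 on chromosome 2 (score 115) H3K27ac was present on days 4 and 5. Of the 42 open on day 5 or 6 without day 4, the highest Ngn2 scores were 134 at 84399286 on chromosome 11, 122 at 129696666 on chromosome 10 and 102 at 3464550 on chromosome 8, each with an ATAC peak on day 5 only (scores 8.65, 10.9 and 9.76).

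At the other end, members were present in a median of 5 of the 14 readouts and closed positions in 3, and 14 members and 211 closed positions were present in none. The member found in the most, 12 of 14, lay at 107969580 on chromosome 3 and had an Ngn2 score of only 65. It lacked DNase on day 0 and the library labelled Lhx3, and had Onecut1 events of 100 and 162.3 reads on days 5 and 6. Its H3K27ac of day 4 was found in the second library only. Another 4 were present in 11, among them 97624472 on chromosome 5 (Ngn2 score 401), with Onecut1 events of 261.5 and 239.7 reads, and 21834825 on chromosome 3 (Ngn2 score 281), open in ES cells and with ATAC scores of 40.5, 65.5 and 79.8 on days 4, 5 and 6. The other 2 were at 20020423 and 129363142 on chromosome 8, both open in ES cells. At all 5 of these members, each Isl1 call came from only 1 of the 2 libraries of its day. Genes and sequence at these positions were not analysed here.

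At the edge of the rule, of the 35 members whose day 2 peak was more than 200 bp away, 30 were open on day 4, 15 on day 6 and 11 had p300 on day 5. Of the 34 closed positions with a peak within 300 bp, 24 were open on day 4, 16 on day 6 and 14 had p300 on day 5. With so few positions these counts are given without a test.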

How the data were processed

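The series holds 26 samples. The authors deposited 1 list per library: ATAC and H3K27ac peaks, Ngn2 and DNase positions with a score each, and event lists for p300, Isl1, Onecut1 and the library labelled Lhx3. Per the file headers, event lists give the signal as precipitated reads, with −log10 q-values and −log10 p-values, which were not used. A p-value for each ATAC peak, deposited by the authors, was not used either. The authors' FPKM table served for 5 genes. What the scores mean, the peak callers of most lists and the read depths are not given in the sources used here. Per the submitters' processing notes, the tools were Bowtie 0.12.7, HOMER 4.7.2, STAR and MACS, named without their roles, and the build was mm9; coordinates are mm9 as deposited.

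After 4 repeated rows were removed from 3184, distances ran from each Ngn2 position to the nearest base of a peak or to the event. Shares have exact Clopper-Pearson 95% intervals and differences Newcombe 95% intervals (scipy 1.17.1, statsmodels 0.14.6). With 1 library in most conditions no test over samples was made and no p-value is given. A difference is called where its interval does not include 0. Chance level was the share after moving each position 10 kb up and down. The calculations were tested on simulated data. Alternatives were distances of 100 and 500 bp, the upper 50% of each list by score, a shift of 50 kb, and each replicate library alone.

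Positions were named by rule: in each ATAC course the 3 members with the highest Ngn2 score, and the 5 present in most readouts, leaving out chromosome 18. The members, lists and tests were chosen with earlier results of these data known. No annotation of build mm9 was at hand, so genes and sequence were not analysed here. Libraries of IgG and of whole cell extract were not used.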

Additional observations from a re-analysis of the deposited data

How the results depend on the processing

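Of 107 alternative values of the difference between members and closed positions, 98 kept their direction and their side of 0, among them every value for DNase, ATAC, H3K27ac and day 5 p300. The exceptions concern sparse events. Onecut1 of day 5 was -1.63 points with a member distance of 100 bp, -2.07 with events within 500 bp and -1.42 with the upper 50% of its list, each with an interval that includes 0. Isl1 of day 5 was -2.04 with the upper 50% of the day 2 list and -1.51 with events within 100 bp, Onecut1 of day 6 was 2.53 with the upper 50% of the day 2 list, and the library labelled Lhx3 was -0.484 within 100 bp and -0.791 within 500 bp, each with an interval that excludes 0. Isl1 of day 6 turned to 0.00741 with a member distance of 100 bp. The causes were not tested. Leaving out a replicate library gave 16.4 and 25.5 points for H3K27ac of day 4, -1.33 and -0.612 for Isl1 of day 5, and -0.285 and -0.0859 for Isl1 of day 6. Without the first Isl1 library of day 6 the value was -0.285.

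There were 604 members with the upper 50% of the day 2 list, 726 at 100 bp, 1013 at 500 bp, and 893 without the 100 highest day 2 scores. The share of members open on days 4, 5 and 6 (53.9%) was 50.4% with a member distance of 500 bp, 63.1% with the upper 50% of the day 2 list, 36.5% and 58.4% with later peaks within 100 and 500 bp, and 33.7% with the upper 50% of the later lists; these alternatives, and those on day 2 peaks, were chosen after seeing the data. Shifts of 50 kb gave 2.76% for H3K27ac of day 4, 2.15% for H3K27ac of day 5, and 0% for Isl1 of day 5 and the library labelled Lhx3. The 8 alternatives for day 2 peaks with and without Ngn2 kept their direction and side.

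No paired analysis was possible because replicate numbers of Isl1 and H3K27ac meet in no comparison between groups and the shares come from no fit over samples. List length limits what can be found: each list has its own threshold, with a read depth that the labels and headers leave unstated.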
